A study of Homo sapiens with 6 samples.

Results

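The genes described here are the protein-coding genes of human chromosome 19 whose GENCODE 29 name is ZNF followed by a number and, for some, a letter. There were 246 of them among the 58096 genes counted. They were measured by total RNA sequencing in ALL-SIL, a human leukaemia line of the T-cell lineage (T-ALL) in which a chromosomal translocation activates the homeobox gene TLX1. One group of 3 libraries came from cells given JQ1, a drug-like compound that keeps BET bromodomain proteins off acetylated histones, and the other group of 3 came from DMSO controls, DMSO being the solvent. The treatment text names 1 µM JQ1 and 24 h for every sample, the controls too, so the titles alone separate the groups, and how the controls were handled is not described further. Both groups are the same unmodified line, so the values describe 1 line, 1 dose and 1 time. Nothing in the labels tells whether a group's libraries came from separate cultures, so the p-values rest on library-to-library spread that may be only technical.

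Most ZNF genes of chromosome 19 encode KRAB zinc finger proteins. In these proteins an array of C2H2 zinc fingers binds DNA, and the KRAB domain recruits the corepressor TRIM28. TRIM28 brings in the histone methyltransferase SETDB1 and heterochromatin proteins, and many of the DNA targets lie in retrotransposons. The family grew by tandem duplication, so its members stand in clusters along the chromosome, and neighbours are often close paralogs.

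Gene counts ran from 15925885 to 25293884 per library. MYC, a known BET-dependent oncogene, was at 358 ± 12.1 CPM (counts scaled to library size, mean ± SD, n = 3) under DMSO and 135 ± 14.8 under JQ1, and HEXIM1, which is known to rise after BET inhibition, at 29.8 ± 7.17 and 89.3 ± 19.2. The 7 T-lineage and line markers were all expressed, with a summed level of 1521 to 1777 CPM under DMSO and 960 to 1253 under JQ1; TLX1 and NOTCH3 rose and the other 5 fell. The 15 markers of other cell types summed to 69.6 to 104 CPM under DMSO and 5.29 to 13.6 under JQ1. Nearly all of that was PECAM1 (78.3 CPM under DMSO and 7.36 under JQ1) and CD79A (8.15 and 2.95), while MS4A1, HBB, COL1A2 and VWF had no read in any library. These marker levels moved with treatment, and their part in the results below was not tested. In bulk RNA, fewer cells of a kind and less RNA per cell cannot be told apart.

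Of the 246 genes, 215 had enough reads to be tested and 31 did not. Those 31 had at most 13 reads in any library, and 11 of them had none. The tested genes had mean levels from 0.557 to 394 CPM with a median of 27.98. Under JQ1, 66 of the 215 rose (30.7%) and 31 fell (14.4%) at an adjusted p under 0.05. Among all 13975 tested genes 15.9% rose and 20.6% fell, so the zinc finger genes held a larger share of rises and a smaller share of falls than the table as a whole. The median log2 fold change of JQ1 over DMSO was 0.13, against 0.00 over all tested genes. Without JQ1 replicate 2 it was 0.07, and without DMSO replicate 3 it was 0.09. It was -0.12 over the 638 other protein-coding genes tested on chromosome 19, of which 92 rose and 185 fell. Over the 201 tested ZNF genes of other chromosomes it was -0.01, with 29 that rose and 45 that fell. The 3 JQ1 and 3 DMSO libraries did not overlap for 127 of the 215 genes (59.1%), against 48.9% of all tested genes.

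The rises were small. Genes that rose had a median log2 change of 0.53, and only 2 of them passed a 2-fold change. Genes that fell had a median of -0.61, and 7 passed a 2-fold change. Libraries of the same replicate number deviated together, and adding that number to the model as a block called 93 higher and 47 lower, against backgrounds of 27.3% and 29.6% of all tested genes. With scaling by library size alone, 53 rose and 39 fell, against backgrounds of 12.1% and 23.2%. The share of rises among the calls was then 57.6%, in place of 68.0%, and the median log2 change was 0.07 over the members and -0.06 over all tested genes.

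The genes were then described by position along the chromosome, with no test of a difference between positions. They were grouped into a cluster wherever the gap to the next one was at most 1 Mb, which gave 16 clusters, 8 of them with at least 5 tested genes. These 8 are named A to H in order along the chromosome on GRCh38. Cluster A spans 7.1 to 9.8 Mb, B 11.5 to 12.6 Mb, C 19.7 to 24.1 Mb, D 34.7 to 35.0 Mb, E 36.2 to 37.8 Mb, F 43.5 to 45.1 Mb, G 51.6 to 53.6 Mb and H 55.5 to 58.5 Mb. On the short arm 37 of 68 tested genes rose and 3 fell, with a median log2 change of 0.34. On the long arm 29 of 147 rose and 28 fell, with a median of -0.02.

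**Figure D1:**
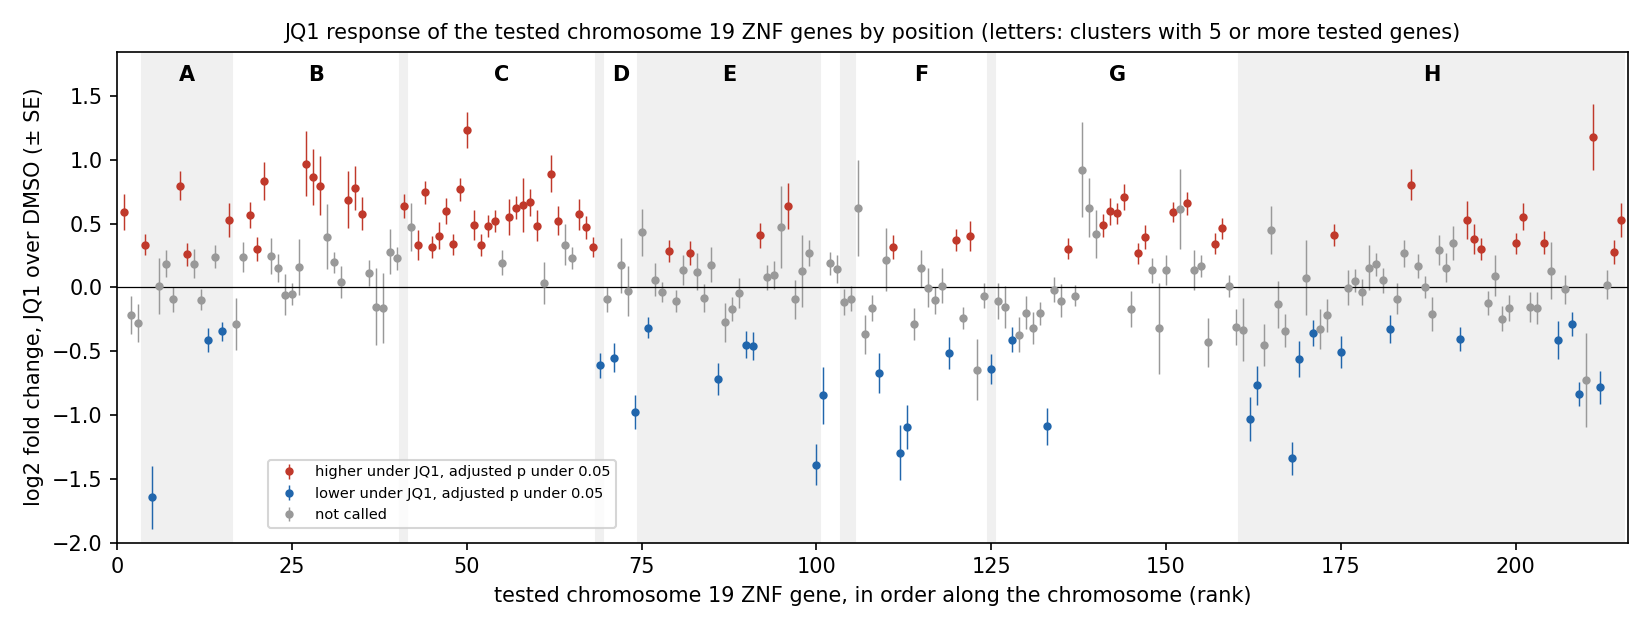
Each point is a tested chromosome 19 ZNF gene, placed by its rank along the chromosome, with its log2 fold change of JQ1 over DMSO ± SE (n = 3 libraries a group); red and blue points passed an adjusted p of 0.05, grey points did not, and shading alternates between clusters. All 27 points of cluster C lie above 0, while the points of clusters E and H lie on both sides.

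In cluster C, 22 of 27 tested genes rose and none fell, with a median log2 change of 0.49 and a range of 0.04 to 1.23. Cluster B had 9 rises and no fall among 24 tested genes, with a median of 0.24. In cluster G 11 of 35 rose and 2 fell, with a median of 0.14. In cluster A 4 of 13 rose and 3 fell, with a median of 0.19. Without JQ1 replicate 2 the median of cluster A was 0.07, with 3 rises and 3 falls. With all libraries, the summed level of cluster A members was lower under JQ1, at 922 to 943 CPM against 962 to 1017 under DMSO. Rises and falls were nearly equal in number in clusters E, F and H. Cluster D had no rise and 2 falls among 5 tested genes, cluster E 4 rises and 5 falls among 26, cluster F 3 and 4 among 19, and cluster H 11 and 12 among 55. The remaining 8 clusters held 11 tested genes between them. With the replicate block, rises and falls were 7 and 3 in cluster A, 15 and 0 in B, 26 and 0 in C, 0 and 2 in D, 6 and 6 in E, 3 and 8 in F, 16 and 7 in G and 17 and 17 in H. The small counts of some clusters changed when 1 library was left out. Depending on the library, rises numbered 1 to 3 in cluster E, 1 to 3 in cluster F and 7 to 11 in cluster H. They were fewest without JQ1 replicate 1 in E and F and without DMSO replicate 3 in H. Rises over all tested genes also dropped, from 2227 to between 1680 and 1902. Whether rises or falls were more in cluster H turned with the setting. There were 11 rises and 9 falls without JQ1 replicate 3, 11 and 10 without DMSO replicate 1 and 10 and 8 without DMSO replicate 2. Cluster C was singled out because it had the highest share of rises, so its count is a description and not an independent result.

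**Figure D2:**
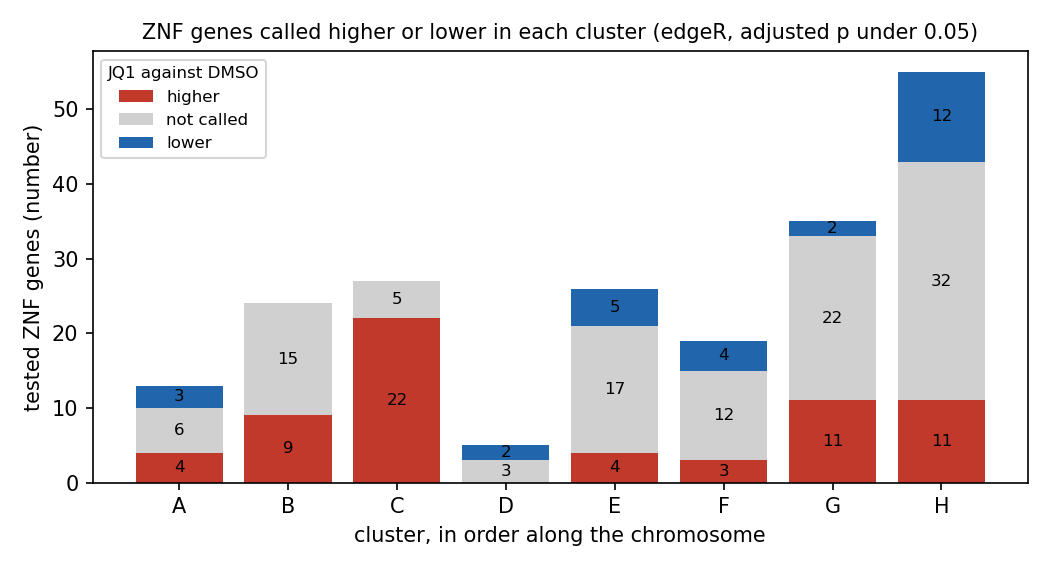
Bars give the number of tested ZNF genes in each cluster that rose (red), fell (blue) or were not called (grey) under JQ1 at an adjusted p of 0.05. Cluster C has 22 rises among 27 genes and no fall, and cluster H has 11 rises and 12 falls among 55.

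A sequence shared by the promoters of cluster C was looked for after these values were seen. RefSeq promoter windows (assembly GRCh38.p14, 250 bases before to 50 after the annotated start) were matched by symbol for 215 of the 246 genes, among them 192 of the tested ones. Of all runs of 10 bases, counted on both strands, the one present in the most cluster C promoters was tccaatcagg, whose reverse complement is cctgattgga. It contains CCAAT, the box that the transcription factor NF-Y is known to bind. The windows below show it in capitals, read in the direction of the gene, for 4 genes of cluster C and 3 of cluster B that rose.
ZNF66, chr19:20776231-20776270, plus strand: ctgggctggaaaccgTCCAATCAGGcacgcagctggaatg
ZNF730, chr19:23116957-23116996, plus strand: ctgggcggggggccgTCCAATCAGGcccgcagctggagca
ZNF737, chr19:20565844-20565883, minus strand: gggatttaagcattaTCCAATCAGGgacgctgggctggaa
ZNF682, chr19:20039534-20039573, minus strand: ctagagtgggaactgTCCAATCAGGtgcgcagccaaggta
ZNF491, chr19:11798476-11798515, plus strand: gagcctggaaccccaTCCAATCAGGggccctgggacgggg
ZNF823, chr19:11739025-11739064, minus strand: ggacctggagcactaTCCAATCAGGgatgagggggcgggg
ZNF878, chr19:12053011-12053050, minus strand: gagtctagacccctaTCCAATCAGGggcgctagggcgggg

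The 10-mer was in 22 of the 24 cluster C promoters of tested genes, always in the direction of the gene and 21 to 79 bases before the start, with a median of 49. It was in 13 of 23 in cluster B. No promoter of a tested gene on the long arm held it, out of 129. It was found in 43 of 215 promoters of chromosome 19 ZNF genes (20.0%), in 13 of 210 promoters of ZNF genes on other chromosomes (6.19%) and in 106 of all 27305 promoters in the table (0.388%). The 10-mer was chosen as the most common one in cluster C, so its excess there and among all members follows from that choice. Outside cluster C it was in 17 of 186 member promoters. The shorter CCAAT, on either strand, was in 53.5% of chromosome 19 ZNF promoters and 35.7% of all promoters. Every other cluster had a most common 10-mer too. It was in 5 of 12 promoters in cluster A, 13 of 23 in B, 2 of 4 in D and 9 of 24 in E. In F it was in 8 of 16, in G in 14 of 28 and in H in 16 of 51. Those of D and F were in 0 promoters of members outside their cluster, and that of H was in 1.

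Of the 37 tested genes with the 10-mer, 23 rose and none fell, with a median log2 change of 0.41. Of the 155 tested genes whose window lacked it, 37 rose and 26 fell, with a median of 0.01. Presence of the 10-mer goes with position. Outside cluster C, all 15 tested genes that held it lay on the short arm, and 5 of them rose and none fell, with a median of 0.24. The 24 other short-arm genes without it had 9 rises and 3 falls and a median of 0.19. Within cluster B the 13 genes with it had 5 rises and a median of 0.25, and the 10 without it had 4 rises and a median of 0.28. Whether the sequence has any part in the response was not tested.

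**Figure D3:**
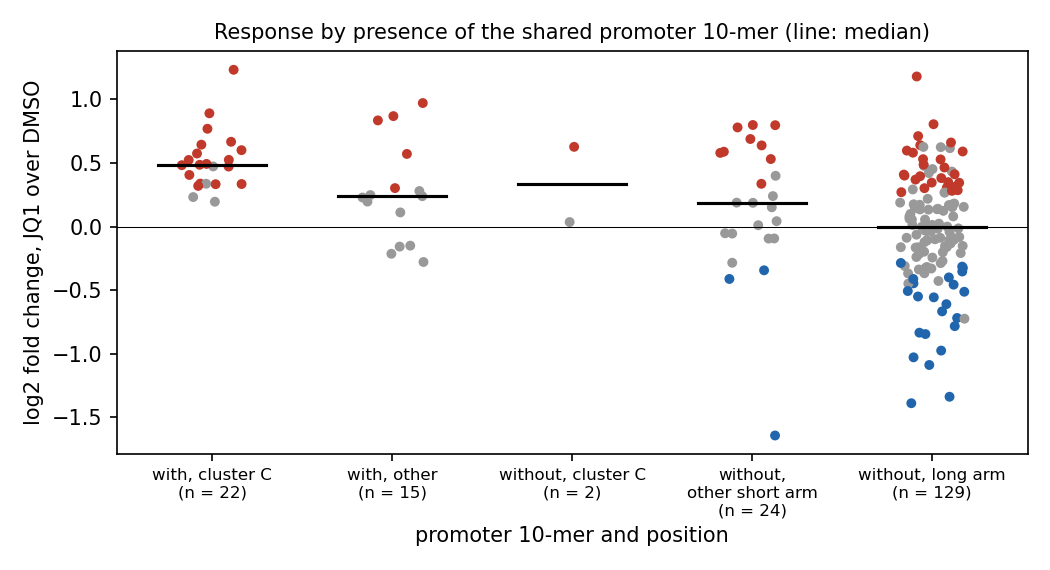
Points are tested genes with a RefSeq promoter window, split by presence of the shared 10-mer and by position, at their log2 fold change of JQ1 over DMSO; red rose, blue fell, grey was not called, and lines are medians. The 22 cluster C genes with the 10-mer have a median of 0.48 and the 129 long-arm genes, none of which holds it, a median of 0.00.

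The full 250 bases before the start are shown for ZNF66, the gene of cluster C with the largest rise, and for ZNF358 of cluster A, the member with the largest fall. The 10-mer is in capitals where present.
ZNF66, chr19:20776054-20776303, plus strand: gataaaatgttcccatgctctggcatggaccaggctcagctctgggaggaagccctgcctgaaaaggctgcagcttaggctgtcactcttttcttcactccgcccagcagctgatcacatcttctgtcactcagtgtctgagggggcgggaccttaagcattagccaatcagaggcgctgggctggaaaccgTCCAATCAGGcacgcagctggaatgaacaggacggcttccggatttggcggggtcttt
ZNF358, chr19:7515853-7516102, plus strand: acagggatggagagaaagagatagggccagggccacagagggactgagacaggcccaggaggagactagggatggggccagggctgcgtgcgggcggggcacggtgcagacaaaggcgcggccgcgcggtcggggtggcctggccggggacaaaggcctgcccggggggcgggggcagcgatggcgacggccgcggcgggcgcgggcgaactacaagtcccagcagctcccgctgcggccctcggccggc
In the 300-base windows the GC content was 56.7% for ZNF66, with 9 CG dinucleotides, and 76.3% for ZNF358, with 32. The window of ZNF358 held neither the 10-mer nor CCAAT. That of ZNF573 in cluster E, which also fell, had 55.0% GC and 18 CG dinucleotides. It held CCAAT but not the 10-mer. By cluster, the median window had 55.8% GC and 10 CG dinucleotides in cluster C, 55.8% and 19 in cluster F, 59.3% and 16 in cluster B, 61.0% and 23 in cluster H, 61.3% and 22.5 in cluster E, 61.5% and 21 in cluster A, 62.3% and 25 in cluster G and 64.0% and 26 in cluster D. Clusters C and F had the same median GC content, and their median log2 changes were 0.49 and -0.10. Over the 192 genes the log2 change had a Pearson correlation of -0.27 (Spearman -0.27) with the number of CG dinucleotides and of -0.22 (Spearman -0.17) with GC content. These correlations are across genes that share paralogous promoters and the same 6 libraries.

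In cluster C the summed level of the family members was 1696 to 1935 CPM in the DMSO libraries and 2400 to 2602 CPM in the JQ1 libraries, and the groups did not overlap. Of the 27 tested genes, 23 had groups that did not overlap, against 48.9% of all tested genes. Under JQ1, 26 of the 27 were higher in all 3 pairs of libraries with the same number. Of all 215 tested members, 106 were higher in all 3 pairs and 68 lower. The pairs were not counted over all tested genes. These counts restate the values that singled out cluster C and are not independent of that choice. ZNF66 had the largest change, at 14.6, 15.3 and 20.1 CPM in DMSO replicates 1, 2 and 3 and 40.1, 35.0 and 42.8 CPM in JQ1 replicates 1, 2 and 3. Every JQ1 library was above every DMSO library. The log2 fold change was 1.23 ± 0.14 (SE, adjusted p = 1.3e-04). ZNF66 lies on the plus strand at chr19:20776304-20807322. ZNF730 (chr19:23075210-23147219, plus strand) was at 24.97, 22.4 and 28.5 CPM under DMSO and 47.2, 38.0 and 55.8 under JQ1. Again the groups did not overlap, and the log2 fold change was 0.89 ± 0.15 (adjusted p = 0.0011).

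ZNF737 and ZNF506 followed, with log2 changes of 0.77 ± 0.09 and 0.75 ± 0.09; they and the other cluster C genes described here beyond ZNF66, ZNF730, ZNF91 and ZNF253 were picked after their values were seen. ZNF93, a repressor of LINE retrotransposons, was at 73.2, 66.3 and 79.9 CPM under DMSO and 97.9, 86.5 and 106 under JQ1. Its groups did not overlap, and its log2 change was 0.41 ± 0.10 (adjusted p = 0.012). ZNF43 rose by a log2 change of 0.49 ± 0.12. ZNF253, among the 5 members with the highest level per length at 24.6 RPKM (CPM per exonic kilobase), rose by 0.31 ± 0.09 (adjusted p = 0.017).

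ZNF91, known to repress SVA retrotransposons, was the third most abundant tested member per length at 37.9 RPKM, on the minus strand at chr19:23304991-23395560. It was at 300.1, 425 and 319 CPM under DMSO and 375, 529.8 and 414 under JQ1. The groups overlap, because replicate 2 was the highest of both groups, while the JQ1 library was higher within each pair. The log2 change of 0.34 ± 0.16 was not called (adjusted p = 0.13), and it was called with the replicate block (adjusted p = 4.3e-05) and without DMSO replicate 2, at 0.51 (adjusted p = 0.033). The other 4 tested genes of the cluster that were not called were ZNF101 (0.47 ± 0.19), ZNF675 (0.23 ± 0.09), ZNF708 (0.20 ± 0.10) and ZNF257 (0.04 ± 0.17). Another 10 members of the cluster were not tested, among them ZNF676 with 47 reads over the 6 libraries and ZNF98 with none.

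**Figure D4:**
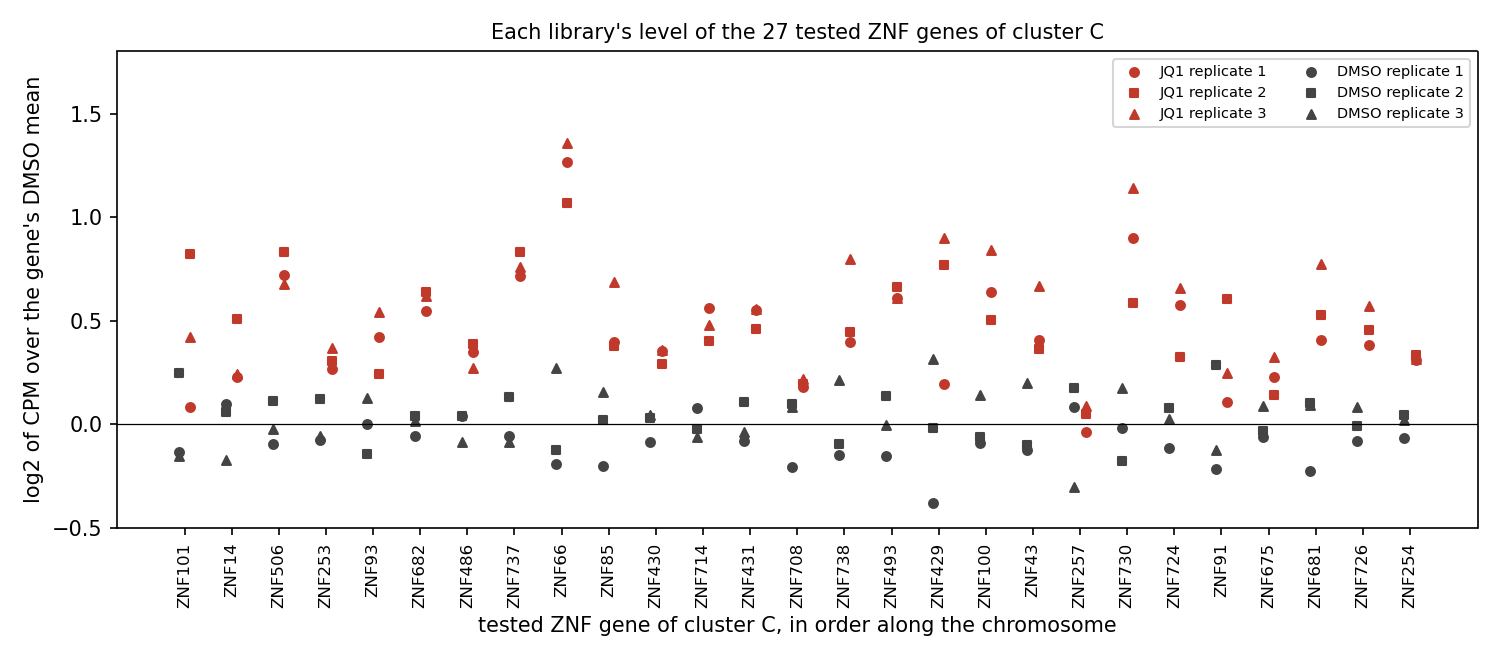
For each of the 27 tested ZNF genes of cluster C, in order along the chromosome, points give the log2 of a library's CPM over the gene's DMSO mean (red JQ1, grey DMSO, marker by replicate number). The JQ1 points lie above all DMSO points for 23 of the 27 genes, and those of ZNF101, ZNF429, ZNF257 and ZNF91 overlap.

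Cluster C genes were also the more abundant ones per length, with a median of 10.98 RPKM against 5.08 RPKM over all tested members. Over the 215 genes the log2 change had a Pearson correlation of 0.15 (Spearman 0.21) with log2 mean CPM, 0.07 (0.06) with exonic length and 0.02 (0.05) with the share of a gene's 75-base runs found in another gene's transcripts. Between 201 pairs of neighbouring tested members of a cluster the 2 log2 changes had a Pearson correlation of 0.32 (Spearman 0.36). In 34 of these pairs both genes rose, in 5 both fell and in 8 they were called in opposite directions. Most of the 34 pairs lie in cluster C, which was singled out for its rises, and the correlation was not computed without that cluster. The genes of the same span that are not members, 24 tested and nearly all non-coding RNAs or pseudogenes, had 13 rises and no fall, with a median log2 change of 0.54. Among them the pseudogene IPO5P1 was at 31.3 ± 2.86 CPM under DMSO and 54.9 ± 3.18 under JQ1, a log2 change of 0.81 ± 0.10. It was picked after its value was seen, as was AC092329.3, the 1 protein-coding gene in this group, which was at 4.86 ± 0.20 and 8.03 ± 0.09 CPM. AC092329.3 overlaps 44.8% of the exonic bases of ZNF724 on the same strand. AC074135.1 and AC092279.1, also among the rises, overlap exons of ZNF730 and ZNF254. These 24 genes are thus not all separate from the members.

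The family is built of paralogs. Reads with several mapping places were left out of the counts by the authors' processing, so values for near-identical copies are uncertain. Reads classed as ambiguous between genes, 3.38% to 3.88% of a library, were counted for no gene either. The median tested member shared 0.261% of its 75-base runs with another gene's transcripts. The share passed 10% for 33 tested members and 50% for 5 of these, which were ZNF709, ZNF320, ZNF564, ZNF490 and ZNF468. A high share does not always mean a copy elsewhere. For ZNF709, ZNF564 and ZNF490, 0% of the runs were found in another member. Other genes on the same strand overlap 79.2%, 69.9% and 61.3% of their exonic bases. Of the genes with over 10%, 11 rose and 3 fell. Among the tested genes of cluster C only ZNF724, at 42.8%, passed 10%, and 0.271% of its runs were found in another member. ZNF98 and ZNF492 of that cluster, at 31.0% and 24.5% (29.2% and 23.0% in another member), had too few reads to be tested.

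Cluster B, the other cluster with no fall, had a summed level of 575 to 677 CPM under DMSO and 696 to 783 under JQ1. ZNF491 had the smallest p there, at 12.02, 15.6 and 11.97 CPM under DMSO and 21.6, 27.03 and 22.1 under JQ1. Its groups did not overlap, and its log2 change was 0.83 ± 0.15 (adjusted p = 0.0015). ZNF433 and ZNF878 were among the 6 largest called rises of the members at 1 CPM or more, but at low levels. ZNF433 was at 0.936, 1.34 and 1.14 CPM under DMSO and 2.42, 1.88 and 2.45 under JQ1 (0.97 ± 0.26, adjusted p = 0.014), without overlap. With unstranded counts its log2 change was 0.55 (adjusted p = 0.040). ZNF878 was at 3.20, 2.55 and 2.92 CPM under DMSO and 6.34, 5.40 and 3.93 under JQ1 (0.87 ± 0.22, adjusted p = 0.011), and it was not called without JQ1 replicate 1 (adjusted p = 0.052). Reads on the other strand of both genes were also higher under JQ1, and their part in these 2 results was not tested.

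In cluster G, ZNF347 had the smallest p among the rises. It was at 68.8, 70.5 and 76.8 CPM under DMSO and 112, 107 and 123 under JQ1, without overlap, a log2 change of 0.66 ± 0.09 (adjusted p = 3.6e-04). The summed level of the cluster's members was 1160 to 1268 CPM under DMSO and 1395 to 1445 under JQ1. The 2 falls were ZNF649 at -0.41 ± 0.10, named because there were only 2, and ZNF432. ZNF432 was at 27.3, 29.3 and 25.8 CPM under DMSO and 11.5, 15.8 and 11.4 under JQ1, well apart, with a log2 change of -1.09 ± 0.14 (adjusted p = 3.0e-04).

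In clusters A, E, F and H rises and falls stood side by side. Cluster A held ZNF699, which rose from 12.6, 12.3 and 10.9 CPM to 20.0, 20.7 and 21.5 (0.80 ± 0.12, adjusted p = 5.2e-04). It also held ZNF358 (chr19:7515292-7521026, plus strand), the largest fall of all members, from 5.86, 6.48 and 6.25 CPM to 1.495, 2.82 and 1.61. Its log2 change was -1.64 ± 0.25 (adjusted p = 6.6e-04), and the groups did not overlap. The 2 members with the highest level per length were both lower under JQ1. ZNF146 of cluster E, a protein of zinc fingers with no KRAB domain, was at 46.2 RPKM; it had 219.8, 209.6 and 208 CPM under DMSO and 170.1, 170.1 and 172 under JQ1 (-0.32 ± 0.08, adjusted p = 0.012). ZNF121 of cluster A was at 46.0 RPKM; it had 384, 388 and 369.5 CPM under DMSO and 288, 266 and 304 under JQ1 (-0.41 ± 0.09, adjusted p = 0.0068). Neither gene's groups overlapped. ZNF428 of cluster F, the fourth per length at 26.6 RPKM, was not called (-0.16, adjusted p = 0.23).

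In cluster E, ZNF573 (chr19:37735833-37817300, minus strand) fell from 18.3, 19.8 and 15.5 CPM to 7.92, 6.76 and 5.61, without overlap. Its log2 change was -1.39 ± 0.16 (adjusted p = 1.5e-04). The rise with the smallest p there was ZNF527, at 0.41 ± 0.10. In cluster F the lowly expressed neighbours ZNF221 and ZNF155 fell together. ZNF221 went from 5.27, 6.05 and 5.38 CPM to 1.74, 2.72 and 2.38 (-1.30 ± 0.21, adjusted p = 0.0011), and ZNF155 from 8.03, 9.51 and 7.54 CPM to 3.52, 4.32 and 3.93 (-1.09 ± 0.17, adjusted p = 8.2e-04). ZNF226 of the same cluster rose by 0.37 ± 0.09, while ZNF234, whose end lies 4763 bases before the start of ZNF226 on the same strand, fell by 0.51 on the log2 scale. ZNF234 was named because, of the 8 pairs called in opposite directions, it is in the closest whose genes do not overlap. The genes of another such pair, ZNF551 (-0.40) and ZNF154 (0.53) of cluster H, overlap on opposite strands. In cluster D the largest fall was ZNF792, from 20.3, 21.4 and 22.1 CPM to 9.70, 12.7 and 9.99 (-0.98 ± 0.13, adjusted p = 3.9e-04), with no overlap.

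Cluster H, at the end of the long arm, divided where a gap of over 500 kb stands. Its first piece, 55.5 to 56.7 Mb, had 13 tested genes with no rise and 5 falls and a median log2 change of -0.34. Its second piece, 57.2 to 58.5 Mb, had 42 tested genes with 11 rises and 7 falls and a median of 0.05. ZNF787 (chr19:56087366-56121280, minus strand), in the first piece, was at 22.4, 19.5 and 21.8 CPM under DMSO and 7.52, 8.87 and 8.83 under JQ1. The log2 change was -1.34 ± 0.13 (adjusted p = 5.2e-05), and all JQ1 libraries were below all DMSO libraries. In the second piece ZNF773 rose from 13.1, 14.5 and 11.9 CPM to 24.7, 23.0 and 21.3 (0.80 ± 0.12, adjusted p = 6.5e-04). ZNF837 rose from 1.92, 2.32 and 3.90 CPM to 5.33, 6.48 and 6.90 (1.18 ± 0.26, adjusted p = 0.0055), and its neighbour ZNF584, picked for its opposite call, fell by 0.78 on the log2 scale. No group of these 4 genes overlapped the other. The summed level of cluster H was 1412 to 1474 CPM under DMSO and 1416 to 1486 under JQ1, which overlap.

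**Figure D5:**
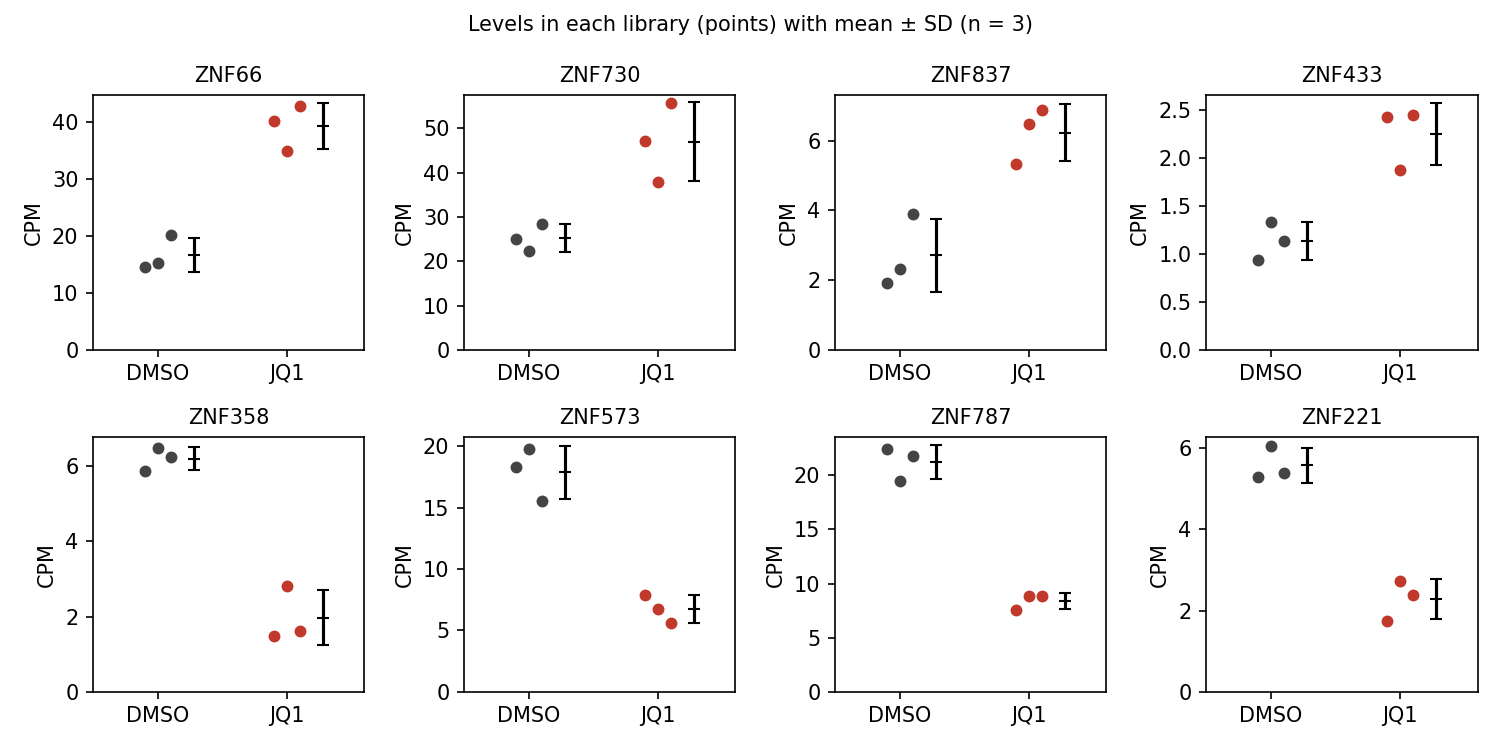
Points are the CPM of single libraries for the 4 largest rises (top row) and the 4 largest falls (bottom row) among members with a mean of at least 1 CPM in the higher group; the bar beside them is the mean ± SD (n = 3) and every axis starts at 0. In all 8 genes the DMSO and JQ1 points do not overlap.

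Some members with known special roles were looked at after the tests. ZNF274, which is known to bring SETDB1 to the 3′ ends of other zinc finger genes, was at 35.2, 38.2 and 32.9 CPM under DMSO and 32.2, 40.6 and 32.3 under JQ1, which overlap (-0.01 ± 0.12, adjusted p = 0.94). ZNF473, a part of the machinery that processes histone transcripts, stands alone between clusters F and G. It fell from 38.9, 40.6 and 40.4 CPM to 23.2, 30.3 and 23.3 (-0.64 ± 0.12, adjusted p = 0.0021). ZNF333 and ZNF507 also stand alone, and their log2 changes were 0.64 ± 0.10 and -0.61 ± 0.10.

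The proteins that KRAB zinc finger proteins work with were covered by a list of 23 genes, all tested. Of these 3 rose (13.0%) and 5 fell (21.7%), shares near the 15.9% and 20.6% of all tested genes, and the median log2 change was 0.06. TRIM28, the common corepressor and itself a gene of chromosome 19, was at 465, 395 and 421 CPM in the DMSO libraries and 590, 543 and 563 in the JQ1 libraries (0.40 ± 0.10, adjusted p = 0.012). The heterochromatin proteins CBX5 and CBX1 were the other rises, at 0.58 ± 0.13 and 0.37 ± 0.09. SETDB1 was at 78.2, 83.0 and 82.8 CPM under DMSO and 51.5, 50.7 and 54.0 under JQ1 (-0.64 ± 0.08, adjusted p = 2.3e-04). TRIM28 and SETDB1 thus moved in opposite directions, each without overlap. The other 4 falls belong to the NuRD nucleosome remodelling complex, namely CHD3 (-1.43 ± 0.12), MTA2 (-0.34 ± 0.09), MTA1 (-0.44 ± 0.12) and GATAD2A (-0.36 ± 0.10), the last named to complete the 5. MTA1 was not called without JQ1 replicate 1, JQ1 replicate 2 or DMSO replicate 3 (adjusted p = 0.057, 0.052 and 0.057), and the number of falls was then as low as 3.

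Reads on the strand opposite to the genes were tested in the same way, an addition made after the data were seen. Of 50 members with enough such reads 10 were higher and 2 lower under JQ1, against backgrounds of 7.54% and 10.3% of the 7018 genes tested on that strand. The 2 lower ones were ZNF132 (-0.73 ± 0.23) and ZNF446 (-0.78 ± 0.24); reads on the sense strand of ZNF446 rose by 0.53 ± 0.13. ZNF829 had 89 opposite-strand reads over the DMSO libraries and 187 over the JQ1 libraries (1.25 ± 0.25, adjusted p = 9.1e-04), while its sense reads fell by 0.72 on the log2 scale. ZNF544 showed the same contrast, with 186 and 343 opposite-strand reads (1.05 ± 0.19, adjusted p = 3.1e-04) and a sense change of -0.29 ± 0.09.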

How the data were processed

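The RNA libraries keep strand, per the labels' protocols. GRCh38 is the genome build in the submitters' processing notes, and which aligner and annotation were used is not given in the sources used here. In the deposited files are raw counts of reads per gene, once over both strands and once for either strand. The layout is that of STAR gene counts, in which a read with several mapping places counts for no gene; such reads were 14.1% to 15.7% of a library. The sense column was used, which exceeded the opposite one 20.9 to 22.6 times. All 246 members matched GENCODE 29 by identifier, 221 with the same version, and positions are printed for these only.

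Genes that passed filterByExpr (minimum count 10, minimum total 15) were scaled by TMM factors (0.965 to 1.06). Groups were compared with edgeR 4.0.16 in R 4.3.3 (glmQLFit and glmQLFTest, robust, with the group as the only term). P-values were adjusted by the Benjamini-Hochberg method over the 13975 genes, and calls had an adjusted p under 0.05. The SE was obtained by dividing the absolute log2 change by the root of the F statistic. The fit was also run on simulated counts with the same spread for every gene, few changed genes and no pairing. That run cannot show how the fit behaves with the paired libraries here. Any 2 libraries of 1 group differed by more than sampling noise. Libraries with the same replicate number deviated from their group means together (correlations across genes 0.33, 0.43 and 0.37 for numbers 1, 2 and 3), so they can be taken as pairs. This pairing is read from the data, as no label explains the numbers. RPKM is CPM divided by exonic length.

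The members and lists were chosen with earlier results of these data known. Named genes were the called member with the smallest p per direction in each cluster with 5 tested genes, the 6 largest called changes per direction among those at 1 CPM or more in the higher group, the 5 highest by RPKM, TRIM28 and SETDB1 with up to 4 called corepressor genes per direction, and MYC and HEXIM1. The part of the rule on protein identity was not applied, since protein sequences were not used here. Alternatives were DESeq2 1.42.0, other scalings and filters, unstranded counts, only members with the same version, the replicate block, a null fold of 1.5, clusters split at 500 kb, and each library left out in turn. Opposite-strand reads were tested after seeing the data.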

Additional observations from a re-analysis of the deposited data

Results flagged for a closer look

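Reads on the strand opposite to the gene lie outside the comparisons of gene expression, and for 10 members they were higher under JQ1 than under DMSO (edgeR, adjusted p under 0.05). The log2 change of these reads was 1.41 for ZNF90, which had too few sense reads to be tested, with 19 opposite-strand reads over the DMSO libraries and 45 over the JQ1 libraries. It was 1.25 for ZNF829, 1.05 for ZNF544, 0.81 for ZNF486, 0.78 for ZNF850 and 0.67 for ZNF878. It was 0.60 for ZNF497, 0.59 for ZNF552, 0.45 for ZNF433 and 0.38 for ZNF814. The exons of ZNF90, ZNF544, ZNF497, ZNF552, ZNF433 and ZNF814 overlap an annotated gene on the opposite strand, and those of ZNF829, ZNF486, ZNF850 and ZNF878 do not.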

How the results depend on the processing

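A test against a fold change of 1.5, which asks for a larger change, left 1 member higher and 9 lower. Over all 13975 tested genes it left 246 higher and 899 lower. The members' share of rises was then below that of all tested genes, unlike in the main fit, and so was their share of falls. The same test left 1 higher gene in cluster C and 1 cluster with more rises than falls (in place of 4). Of the corepressor genes it left 0 higher and 1 lower. With the replicate block, which uses the paired libraries, 93 members were higher and 47 lower. Of the 23 corepressor genes 6 were higher and 6 lower. The backgrounds were then 27.3% and 29.6% of all tested genes. Leaving out each library in turn gave 54 to 61 higher and 26 to 33 lower members, 18 to 22 higher genes in cluster C, 3 to 5 lower corepressor genes and a median log2 change of 0.07 to 0.20 over the members. The cause of these shifts was not tested. In the other settings run, these counts stayed within 1.5 times their reported values. The median over the members fell to 0.07 with library size alone. By cluster, upper-quartile factors gave 11 rises and 10 falls in H with a median log2 change of 0.0041 in place of -0.01, and DESeq2 gave 3 and 3 in A. Library size alone gave 2 rises in E, 1 in F and 5 falls in G with a median of 0.07, no filter on low counts gave 2 rises in E and 5 falls in G, and unstranded counts gave 2 rises in E. Cluster C had no lower gene in any setting. Of 32 named genes, 19 lost their call in the test against a fold of 1.5, and ZNF878, ZNF91, ZNF253 and MTA1 changed side of the threshold in at least 1 other setting. ZNF253 was not called without JQ1 replicate 3 or without DMSO replicate 1 (adjusted p = 0.062 and 0.056). Genes at a few CPM, such as ZNF433 and ZNF358, have few reads per library and wide errors.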
